A study of Mus musculus with 24 samples.

Results

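*Nthl1* and the other core genes of base excision repair were examined in the hypothalamus of male F2 mice that differed in genotype across a segment of Chr 17. Of the 9 genes listed by name, 8 were found among the 13998 genes of the deposited table, namely *Nthl1*, *Ogg1*, *Mutyh*, *Ung*, *Mbd4*, *Apex1*, *Polb* and *Xrcc1*, and *Neil1* was not analysed here. The list was drawn up because *Nthl1* lies within the CAST segment, beside the candidate interval, and was chosen by its genotype difference in these same libraries, so the genotype differences of the 8 genes are given as descriptions. No *P* is printed for them, and a call below says only on which side of the study's thresholds a gene fell. *Nthl1* was the only 1 of the 8 within the segment.

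The mice came from an intercross founded by 1 male of the B6.CAST-17.1 congenic line, which carried CAST/EiJ alleles in a segment of Chr 17, and by C57BL/6J females. The 12 *cast/cast* and 12 *b6/b6* mice were non-recombinant homozygotes across the segment and carried C57BL/6J alleles elsewhere by design. They were not a random sample of their genotypes, since the *cast/cast* mice had been taken from those that ate the most and the *b6/b6* mice from those that ate the least from the carbohydrate/protein diet. All 24 mice had entered a 10 d choice between a carbohydrate/protein and a fat/protein diet at 10 to 16 weeks of age, were returned to chow, and were given the choice again for about 48 h and fasted for 4 h before the tissue was taken. SAGE-Seq, which counts a short tag from the 3′ part of each transcript, gave 1 library per mouse.

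Base excision repair removes small, damaged or misplaced bases from DNA. A glycosylase recognises the base and cuts it from the sugar, an endonuclease opens the strand at the empty site, a polymerase fills the gap, and a ligase held by a scaffold protein seals it. Nthl1 and its relatives take out oxidised pyrimidines, Ogg1 takes out 8-oxoguanine, Mutyh the adenine mispaired with it, Ung uracil, and Mbd4 thymine or uracil opposite guanine at CpG sites. Apex1 is the main endonuclease of the pathway, Polb fills the gap and Xrcc1 is the scaffold. Neurons, which do not divide, are held to depend on this pathway for oxidative damage.

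The letters counted for a gene come from its tag, and 3 tags are shown because the results below turn on these genes. SAGE tags begin at a CATG site, normally the one nearest to the 3′ end, and the 27 bases from the last CATG of the GENCODE transcript are given 5′ to 3′ with CATG in capitals. These are reference strain letters, and which tag the software credited to a gene is not kept in the table.
*Nthl1*: CATGtgcacagaatagccaaccgactg
*Apex1*: CATGatgaatgcccgctctaagaatgt
*Ung*: CATGcttttctgaaagacaatcttcac
The *Nthl1* tag lies at chr17:24638435-24638461 of GRCm38 on the plus strand, in the coding part of exon 5 of 6. The *Apex1* tag lies at chr14:50926823-50926849, plus strand, in the coding part of the last exon. The *Ung* tag lies at chr5:114139210-114139236, plus strand, in the 3′ UTR. None of these 3 tags occurred in a transcript of another gene. Whether CAST/EiJ carries the same letters at the *Nthl1* tag was not tested, so fewer hits in *cast/cast* mice need not mean less *Nthl1* RNA.

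Tag hits totalled 7754202 to 13082873 per mouse. The libraries of *cast/cast* mice 4 and 6 and *b6/b6* mice 6 and 12 stood apart from the others by their correlation with the rest, and all 4 had study numbers under 200. The labels name no batch, but study numbers were lower in *cast/cast* (median 120.5) than in *b6/b6* mice (269.5). Summed levels of 11 marker lists for hypothalamic, neuronal, glial, vascular, blood, choroid plexus, pituitary, thalamic and dividing cells overlapped between the genotypes. The neuronal list gave 24138 to 39567 normalized counts in *cast/cast* and 23152 to 42043 in *b6/b6* mice, and the list for dividing cells, of which 3 of 7 genes were in the table, gave 122.7 to 262.1 and 60.9 to 165.2. In dissected tissue a lower value may mean fewer cells of a type or less RNA per cell, and these cannot be told apart.

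*Nthl1*, on Chr 17 from 24632680 to 24638837 (plus strand, GRCm38), was nearly absent from the *cast/cast* libraries. Its normalized count, that is, tag hits divided by the size factor of the library, ranged from 33.7 through a median of 72.1 to 86.9 in *b6/b6* mice. In *cast/cast* mice it ranged from 0 through a median of 1.40 to 3.56. Every *cast/cast* mouse was below every *b6/b6* mouse, and the lowest *b6/b6* mouse was number 12, whose library stood apart. Means were 69.3 ± 15.1 in the *b6/b6* group, against 1.53 ± 1.38 in the *cast/cast* group (SD, n = 12 each).

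In tag hits, 4 *cast/cast* mice had 0, 2 had 1, 2 had 2 and 4 had 3, so that no *cast/cast* mouse exceeded the 3 hits taken as the floor of detection. The 12 *cast/cast* libraries held 18 *Nthl1* hits together and the 12 *b6/b6* libraries 872. Scaled by size factors, the *b6/b6* level was 47.3 times that of *cast/cast*, with an exact 95% interval for counting error alone of 29.7 to 80.2. On the scale of log2(normalized count + 1), *cast/cast* minus *b6/b6* was -4.99 ± 0.29 (SE), with a 95% interval of -5.59 to -4.40. This value understates the difference in counts, because the added 1 is about as large as the *cast/cast* count itself.

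Since *Nthl1* was chosen on these mice, its values in subsets of them are further descriptions of the same difference and no repeat of it. Among mice with study numbers under 200, 8 *cast/cast* and 5 *b6/b6*, the log2 fold change was -5.09 ± 0.46. Among those over 200, 4 *cast/cast* and 7 *b6/b6*, it was -4.69 ± 0.37. Without the 4 libraries that stood apart it was -5.24 ± 0.29.

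**Figure D1:**
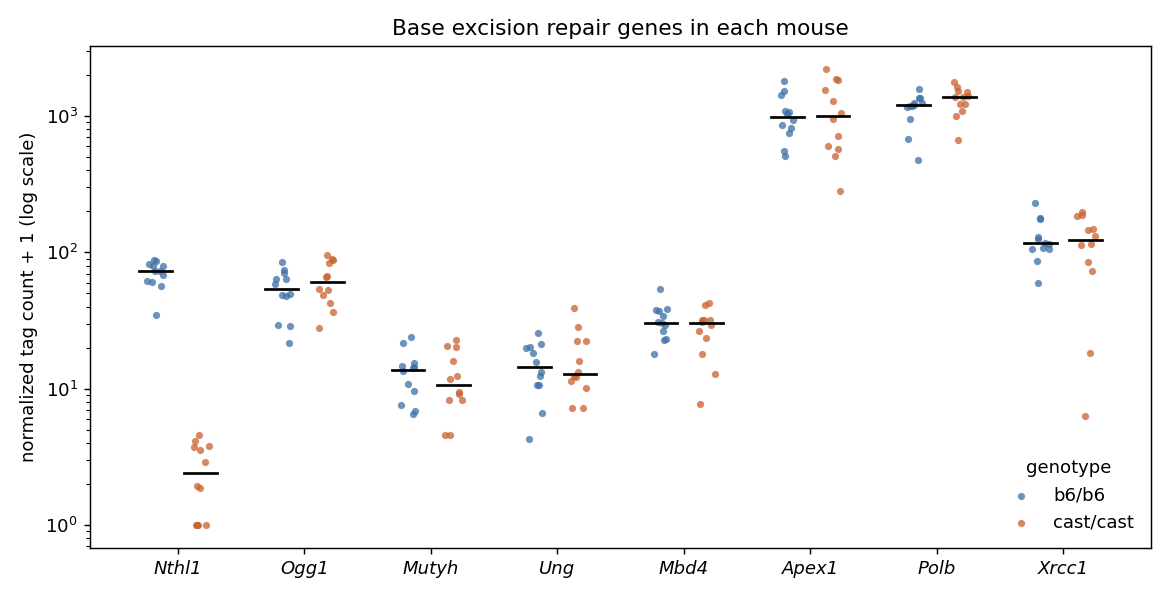
Normalized tag count + 1 (log scale) of 8 base excision repair genes in each of 12 *b6/b6* (blue) and 12 *cast/cast* (orange) mice, with a bar at the median. The *Nthl1* points separate, with *cast/cast* mice at 3.56 normalized counts or less and *b6/b6* mice at 33.7 or more, while the points of the other 7 genes overlap.

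A gene was called different at an unadjusted limma *P* of at most 0.01 with group means that differed at least 1.5-fold. *Nthl1* was called lower and the other 7 genes were not called, so 1 of 8 was called beside 1.49% of all 13998 genes tested (1.01% for calls in the lower direction). Within the CAST segment 24.5% of 429 genes were called, and outside it, where the other 7 genes lie, 0.713% of 13318. By log2 fold change *Nthl1* ranked 10 of the 429 segment genes from the lowest. It was 1 of 39 segment genes in which no *cast/cast* mouse reached the lowest *b6/b6* mouse. Genes whose genotypes did not overlap in either direction made up 10.3% of the segment. Since the genotype difference was used to choose *Nthl1*, nothing is read from these shares.

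*Nthl1* lies between *Tsc2*, which encodes a subunit of the tuberous sclerosis complex and is transcribed in the opposite direction from a start close by, and *Slc9a3r2*, which encodes a scaffold of membrane transporters. The 54 bases between the RefSeq starts of *Tsc2* and *Nthl1*, at chr17:24632628-24632681 (GRCm38.p6, plus strand), are shown because the starts are divergent while the genes had unlike genotype differences.
*Tsc2* to *Nthl1*: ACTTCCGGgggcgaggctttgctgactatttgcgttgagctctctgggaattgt
The capitals mark a match to the ETS motif CCGGAAGT on the minus strand, held by 1.49% of 32851 windows of the same length just before RefSeq starts. On either strand the CCAAT box CCAAT, held by 9.52% of such windows, and the TATA box TATAAA, held by 3.66%, were not found in these letters. The same was true of the GC box GGGCGG (17.2% of windows) and the E-box CACGTG (1.85%). The window bears the reference strain's letters, and a match is a description of the sequence.

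The *Tsc2* level ranged from 574.2 through 1005.3 to 2185.4 in *b6/b6* mice and from 342.1 through 762.9 to 2700.2 in *cast/cast* mice (lowest, median, highest). The groups overlapped, and the log2 fold change was -0.28 ± 0.30. *Slc9a3r2*, downstream of *Nthl1*, was at 159.8 to 280.5 in the *b6/b6* group against 180.9 to 354.3 in the *cast/cast* group. It was not called, with a log2 fold change of 0.26 ± 0.13.

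Of the 6 genes of the table that lay within 50 kb of *Nthl1* or were *Nthl1* itself, *Pkd1* (0.17 ± 0.32), which encodes polycystin, and *Syngr3* (-0.32 ± 0.25), which encodes a synaptic vesicle protein, were also not called. *Zfp598*, which encodes a ubiquitin ligase that acts on collided ribosomes, was called lower in *cast/cast* mice. It had 207.7 to 609.5 normalized counts in the *b6/b6* group, against 0 to 8.50 in the *cast/cast* group, without overlap, and a log2 fold change of -7.13 ± 0.29. Low *cast/cast* counts at *Nthl1* were thus flanked on either side by a gene, *Tsc2* or *Slc9a3r2*, with at least 159.8 normalized counts in every mouse. Within 500 kb of the *Nthl1* start, 8 of 44 genes, *Nthl1* included, were called lower and 3 higher, beside 24.5% called in either direction over the segment. The genes called lower there included *Mapk8ip3* at -5.76, lower than *Nthl1*, and *Eme2* at -4.27, both named after their values were seen.

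**Figure D2:**
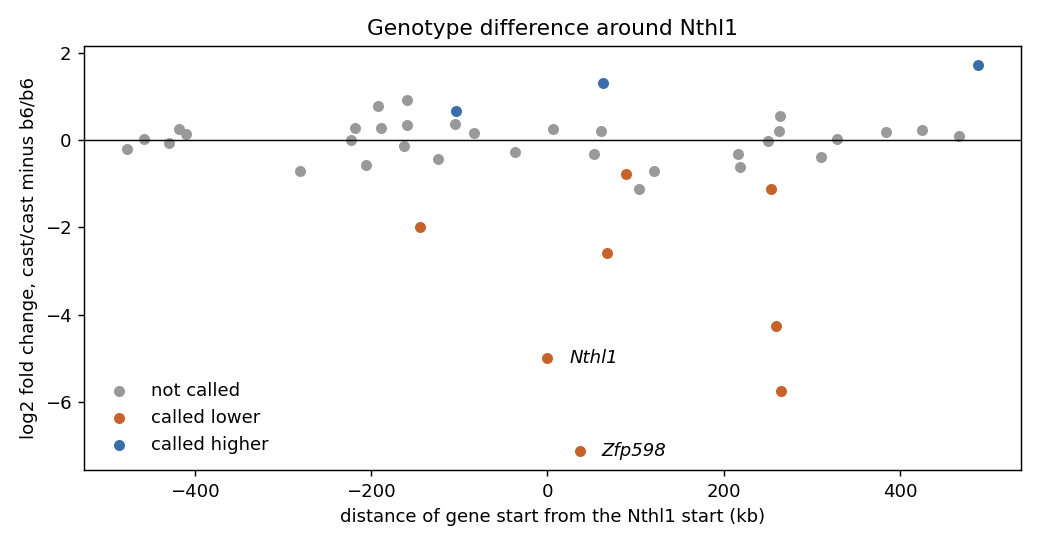
Log2 fold change (*cast/cast* minus *b6/b6*) of the 44 genes that start within 500 kb of *Nthl1* against the distance of their start from that of *Nthl1* in kb; orange genes were called lower, blue called higher and grey not called. *Nthl1* at -4.99, *Zfp598* at -7.13, *Mapk8ip3* at -5.76 and *Eme2* at -4.27 were called lower, among neighbours that were mostly not called.

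No other glycosylase of the list was called. *Ogg1* ranged from 20.7 through a median of 52.9 to 84.0 in *b6/b6* mice. In *cast/cast* mice it ranged from 26.9 through 59.2 to 94.0, which overlapped the *b6/b6* range, and its log2 fold change was 0.24 ± 0.24 (95% interval -0.25 to 0.73). *Mutyh*, which works with *Ogg1* against oxidised guanine, ranged from 5.51 through 12.8 to 23.1 in the *b6/b6* group, against from 3.56 through 9.63 to 21.9 in the *cast/cast* group. Its log2 fold change was -0.17 ± 0.29 (-0.77 to 0.44), at only 3 to 25 tag hits per mouse.

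The glycosylases for uracil and for deaminated bases at CpG sites gave a similar picture. *Ung* (-0.16 without the libraries that stood apart) ranged from 3.26 through 13.5 to 24.4 in the *b6/b6* group, against from 6.23 through 11.9 to 38.1 in the *cast/cast* group, with a log2 fold change of 0.14 ± 0.31 (-0.49 to 0.78). *Mbd4* ranged from 17.0 through 29.4 to 53.3 in the *b6/b6* group, against from 6.67 through 29.3 to 41.9 in the *cast/cast* group, with -0.29 ± 0.25 (-0.80 to 0.21). The groups overlapped for both genes, and these intervals still allow a change of 1.5-fold.

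The genes that act after the glycosylases overlapped between the genotypes too. *Apex1* ranged from 513.0 through 983.2 to 1826.3 in the *b6/b6* group, against from 283.7 through 1003.2 to 2230.0 in the *cast/cast* group, and its log2 fold change was -0.02 ± 0.29 (-0.61 to 0.56). *Polb* ranged from 474.2 through 1200.6 to 1592.6 in the *b6/b6* group, against from 667.2 through 1378.8 to 1777.0 in the *cast/cast* group, with 0.23 ± 0.18 (-0.13 to 0.60). For *Polb*, 9 of 12 *cast/cast* mice were above the *b6/b6* median.

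*Xrcc1* ranged from 58.9 through 115.8 to 229.6 in the *b6/b6* group, against from 5.34 through 122.2 to 198.2 in the *cast/cast* group. *Cast/cast* mice 1 and 2, at 17.2 and 5.34, were below all others, and the next lowest *cast/cast* mouse had 71.8. The log2 fold change of -0.48 ± 0.42 (-1.35 to 0.39) had the widest interval of the 8 genes. It was -0.14 without *cast/cast* mouse 2, -0.14 with edgeR, -0.83 without the 4 libraries that stood apart, and 0.16 among mice over study number 200. *Ogg1*, *Mbd4*, *Apex1* and *Polb* overlap a gene on the opposite strand, and since counting by strand is not stated in the sources used here, reads of the 2 genes may not be separated.

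Other genes of the pathway were taken from a list of 52, of which 45 were in the table, all outside the CAST segment. With limma none of the 45 was called higher or lower, and 3 had an unadjusted *P* under 0.05, beside 8.13% of all genes. With edgeR 0 and with DESeq2 1 of the 45 was called, beside 2.79% and 2.82% of all genes, and each gave 3 with an unadjusted *P* under 0.05. That number was 7 with study number as a covariate and 7 among mice under study number 200. It was 0 among those over 200, where 44 genes of the list were fitted, and 1 without the 4 libraries that stood apart. The share of all genes under 0.05 was taken for the main fit only, so nothing is read from the counts of the other fits. The median log2 fold change was 0.08 over the list and -0.02 over all genes. The lowest adjusted *P* in the list was 0.568 (limma, Benjamini-Hochberg over all genes).

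The 5 genes of this list with the lowest *P* were *Mpg*, *Parp3*, *Smug1*, *Itpa* and *Hmgb1*. *Mpg*, the glycosylase for alkylated purines, had 416.0 ± 95.7 normalized counts in the *b6/b6* group, against 525.8 ± 96.4 in the *cast/cast* group, a log2 fold change of 0.37 ± 0.15 (unadjusted *P* = 0.0211 and adjusted *P* = 0.568 in limma). *Smug1*, a second uracil glycosylase, had 101.2 ± 78.5 in the *b6/b6* group, against 59.7 ± 16.9 in the *cast/cast* group, and -0.54 ± 0.26 (adjusted *P* = 0.608 in limma). It was the gene that DESeq2 called, and its *b6/b6* values spread from 44.1 to 290.4 around a median of 76.6. *Parp3*, which adds ADP-ribose at strand breaks, gave 0.52 ± 0.24, *Itpa*, which clears deaminated purine nucleotides, -0.29 ± 0.15, and *Hmgb1*, a chromatin protein that aids long patch repair, -0.40 ± 0.21. None of these 5 passed the adjusted test. Without the 4 libraries that stood apart, *Mpg* was at 0.17, *Parp3* at 0.12 and *Smug1* at -0.17, with unadjusted limma *P* of 0.116, 0.419 and 0.302. With study number as a covariate these 3 genes moved the other way, to 0.42, 0.65 and -0.68. The unadjusted limma *P* were then 0.0083, 0.0091 and 0.0108, and the lowest adjusted limma *P* of the list was 0.245. *Parp3* was not called there because the fold limit was applied to group means without the covariate, which differed 1.34-fold.

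By role, no gene was called by limma among 2 further glycosylases, 6 genes for abasic sites and strand ends, 9 polymerase subunits, 8 genes of long patch repair and ligation, 6 of ADP-ribose signalling, 4 that clean the nucleotide pool and 10 cofactors. Log2 fold changes in the list ran from -0.58 for *Parg*, which removes ADP-ribose chains, to 0.54 for *Pold4*, a subunit of polymerase delta. *Parg* and *Pold4* were named after their values were seen.

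**Figure D3:**
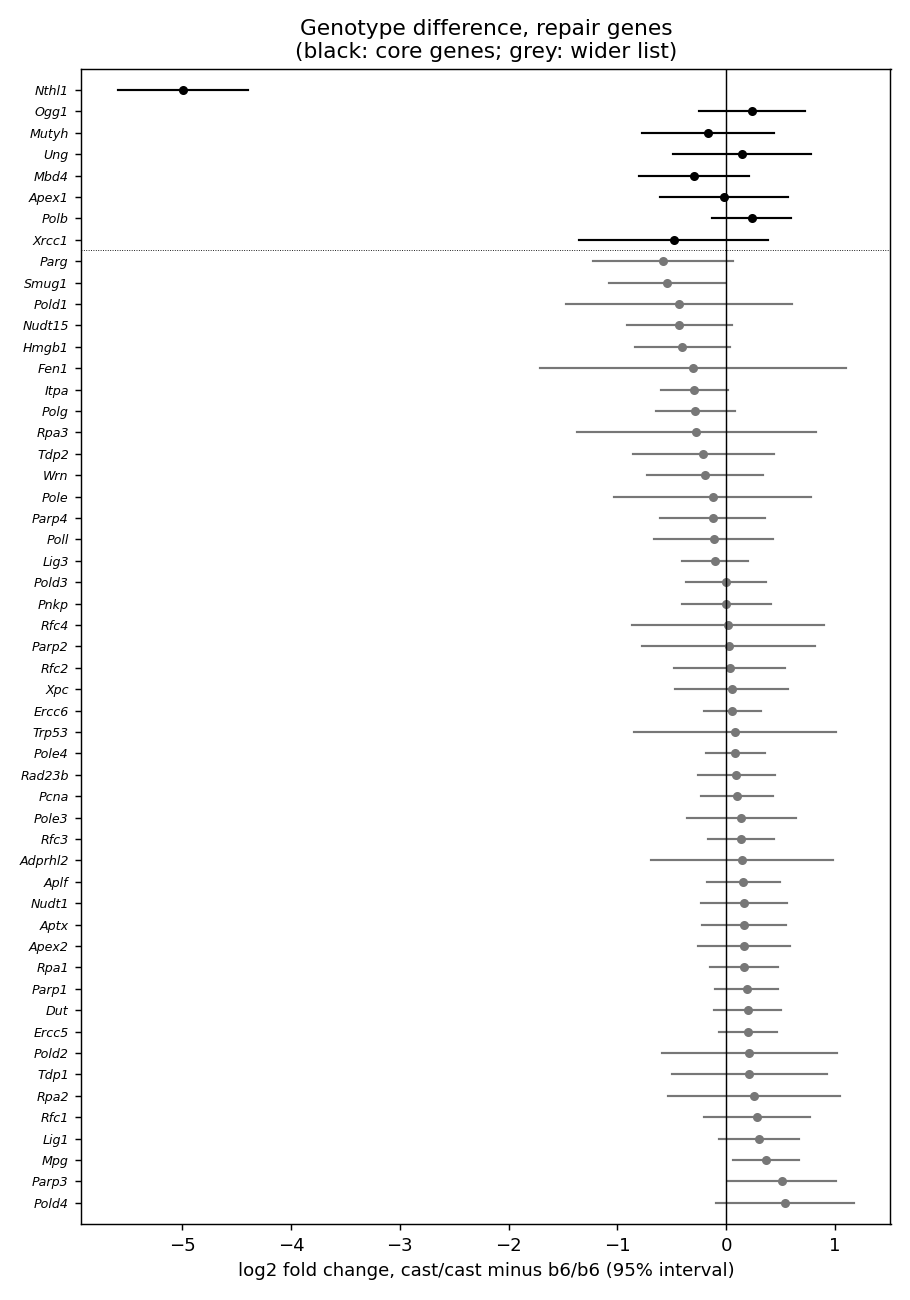
Log2 fold change (*cast/cast* minus *b6/b6*, on log2 of the normalized count + 1) with its 95% interval for the 8 core genes (black) and 45 further genes of the pathway (grey). *Nthl1* lies at -4.99, and the other 52 genes lie between -0.58 and 0.54.

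Within a genotype, levels could be compared between mice with study numbers under and over 200, which was not used to choose the genes. In *b6/b6* mice 3 of the 8 genes had an unadjusted *P* under 0.05 in an exact permutation test, beside 31.1% of all 13998 genes, so that the members stood near the background of a difference shared by much of the table. For 2 of the 8 the subsets did not overlap, beside 3.91% of all genes. No gene of the table passed the adjustment over all genes. The smallest *P* that the 792 splits of the exact permutation test allow is 0.00126. Over 13998 genes a gene at that *P* could pass only if many others shared it. A lack of difference can therefore not be read from this.

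These 2 genes were *Apex1* and *Ung*. For *Apex1* the 5 *b6/b6* mice under 200 ranged from 1076.7 through a median of 1434.9 to 1826.3 normalized counts and the 7 over 200 from 513.0 through 825.3 to 1030.9. The difference of mean log2 values, over minus under 200, was -0.84 (exact permutation test, two-sided, unadjusted *P* = 0.00253, adjusted *P* = 0.0594 over all genes). For *Ung* the same 5 mice ranged from 3.26 through 9.65 to 11.4 and the same 7 from 12.3 through 18.9 to 24.4. The difference was 1.18 on the log2 scale (exact permutation test, two-sided, unadjusted *P* = 0.00126, the smallest that 792 splits allow, adjusted *P* = 0.0593 over all genes).

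In *cast/cast* mice, 8 under and 4 over 200, *Apex1* differed by 0.65 and *Ung* by 0.54, with overlapping subsets (exact permutation test, unadjusted *P* = 0.257 and 0.265). Of the 5 *b6/b6* mice under 200, 2 had libraries that stood apart. Without these the *Apex1* and *Ung* differences were -1.06 and 0.74, both at the smallest *P* that 120 splits allow (exact permutation test, unadjusted *P* = 0.00833). *Nthl1* differed by 0.15 between the *b6/b6* subsets (exact permutation test, unadjusted *P* = 0.581).

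The *Apex1* genotype difference had opposite signs in the subsets. It was -0.73 ± 0.37 under and 0.76 ± 0.34 over study number 200, although -0.02 over all mice. The interaction of genotype and study number subset was 1.49 ± 0.54 on the log2 scale (limma, unadjusted *P* = 0.0104), and its *P* adjusted over all genes was 0.609. The part of study number in these values cannot be told apart from anything else that changed over the same mice.

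**Figure D4:**
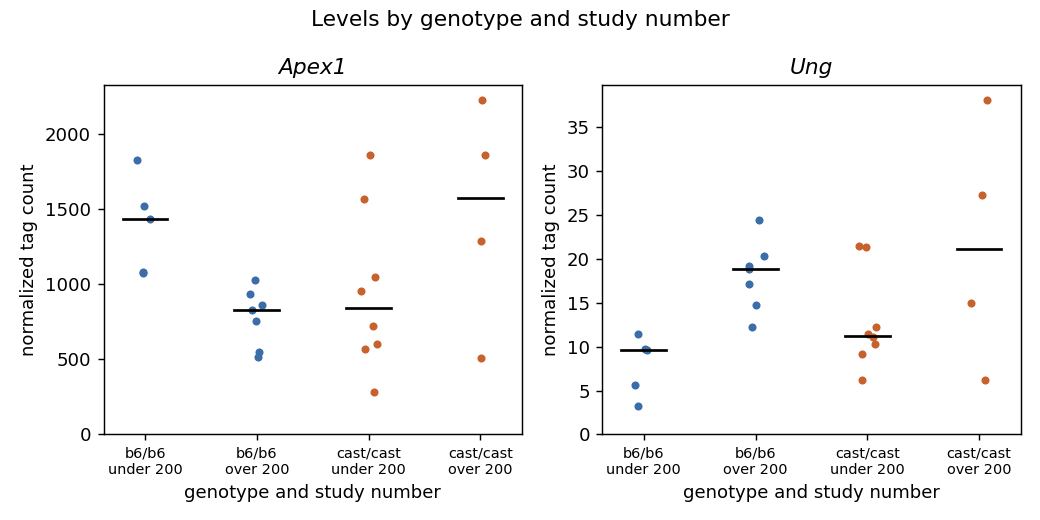
Normalized tag count of *Apex1* (left) and *Ung* (right) in each mouse by genotype and study number under or over 200, with a bar at the median. In *b6/b6* mice (blue) the *Apex1* points run from 1076.7 to 1826.3 under 200 and from 513.0 to 1030.9 over it, and the *Ung* points from 3.26 to 11.4 and from 12.3 to 24.4; in *cast/cast* mice (orange) the subsets overlap.

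Intake was compared with the levels of the 8 genes within each genotype, where the choice of genes gave no direction. Total intake over the 10 d ranged from 104.0 to 133.1 kcal in *cast/cast* and from 94.8 to 120.2 kcal in *b6/b6* mice, and intake from the carbohydrate/protein diet from 77.8 to 106.6 and from 27.4 to 41.0 kcal. Of 32 relations, 3 had an unadjusted *P* under 0.05 for Pearson's *r* and none held after adjustment over the 32 (lowest adjusted *P* = 0.337, permutation tests, two-sided).

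*Nthl1* and carbohydrate/protein intake in *b6/b6* mice gave *r* = 0.58 (permutation *P* = 0.0580, adjusted *P* = 0.337) and Spearman's rho = 0.20 (permutation *P* = 0.521, adjusted *P* = 0.878). Without the 2 mice farthest from the median intake, *b6/b6* mice 12 and 5, *r* was 0.14, and among the 7 mice over study number 200 it was -0.37. Mouse 12, whose library stood apart, had the lowest intake, 27.4 kcal, and the lowest *Nthl1*, *Ung* and *Ogg1* counts of the *b6/b6* group. Mouse 5 had the highest intake, 41.0 kcal, with an *Nthl1* count of 59.7, below the median of 72.1. The value of *r* without mouse 12 alone was not taken. In *cast/cast* mice *Nthl1* was at the floor and nothing was read from its relation to intake. *Ung* in the same *b6/b6* mice gave *r* = 0.61 (permutation *P* = 0.0343, adjusted *P* = 0.337) and rho = 0.31 (permutation *P* = 0.329, adjusted *P* = 0.810), and *r* fell to 0.04 without the 2 mice. *Ogg1* gave *r* = 0.59 (permutation *P* = 0.0449, adjusted *P* = 0.337) and rho = 0.27 (permutation *P* = 0.396, adjusted *P* = 0.845), and *r* was 0.22 without them.

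*Xrcc1* and total intake in *cast/cast* mice gave *r* = -0.58 (permutation *P* = 0.0436, adjusted *P* = 0.337) and rho = -0.64 (permutation *P* = 0.0303, adjusted *P* = 0.486). Here *r* was -0.60 without the 2 mice farthest from the median and -0.64 among the 8 mice under study number 200. *Cast/cast* mice 1 and 2, with the lowest *Xrcc1* counts and intakes of 133.1 and 127.1 kcal, stayed in both subsets. Whether *r* rested on these 2 mice was not tested. Subsets of 4 and 5 mice were too small for a correlation.

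The genes also varied among themselves from mouse to mouse. Over the 24 mice, after the mean of each genotype was subtracted, Pearson's *r* for the 28 pairs of the 8 genes ran from -0.54 to 0.65 with a median of 0.12. *Ung* and *Polb* gave the highest value, 0.65, with 0.86 in the *b6/b6* and 0.39 in the *cast/cast* mice. *Ung* and *Mbd4* gave the lowest, -0.54. The points share library depth and the study number subsets, and the values are descriptions.

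By the same measure, the genes most like *Nthl1* among 11994 with a mean of at least 20 normalized counts were *Cybb* (0.68), *Synpo* (0.67), *Ttyh3* (0.67), *Nav1* (0.66) and *Ankrd12* (0.66), and those most opposed were *Mrpl3* (-0.69) and *Tmem175* (-0.67). These values rest in part on *cast/cast* mice at the floor. Over the 12 *b6/b6* mice alone, a choice made after seeing the data, the first 5 fell to between -0.00075 and 0.43, and *Mrpl3* and *Tmem175* were at -0.55 and -0.69. In those mice *Cybb* was at 0.19, and 7982 of the 11994 genes, *Cybb* included, had an *r* at least as large in size. No likeness to *Nthl1* is therefore read from this ranking.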

How the data were processed

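Hypothalamus total RNA of 24 mice, 12 per genotype, was profiled by SAGE-Seq. The deposited signal values were made by the authors from tags aligned with SOLiD SAGE Analysis Software (GRCm38), the hits of a gene in a library being scaled by its DESeq size factor. The comparison columns that the authors deposited hold means, fold changes, their log2 values and *P* values, and were not used. Repeated rows of a gene (19529 rows, 13998 genes) held equal values and were used once. In each library 100% of values were whole multiples of 1 step (tolerance 0.01 tag hits), which gave back the tag hits, 7754202 to 13082873 per mouse; intervals and the floor of 3 hits cover counting error only. No 2 libraries agreed within sampling noise (lowest chi-square per degree of freedom 14.7 over 276 pairs).

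Genotype, study number and intake came from the labels, and the label field for study number is not explained there. Genes that averaged 5 or more normalized counts were fitted with limma 3.58.1 (lmFit, eBayes with trend) on log2(normalized count + 1) over 24 mice without a covariate, *P* values being adjusted by Benjamini-Hochberg over all genes. Recovered tag hits were also fitted with edgeR 4.0.16 and DESeq2 1.42.0. The CAST segment was taken from 3.19 to 45.73 Mb of Chr 17. Relations with intake used 100000 resamples, and study number subsets an exact permutation test, run over all genes after the data were seen. Scripts were tested on simulated data and run in R 4.3.3 and Python 3.11.15 (numpy 2.4.6, pandas 2.3.3, scipy 1.17.1, matplotlib 3.10.9). Tags and gene positions were read from GENCODE vM21 and the bases before gene starts from RefSeq.

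The members and lists were chosen with earlier results of these data known. Named were all members, the called genes and the 5 lowest *P* of the wider list, genes within 50 kb of *Nthl1*, and the 5 genes most like it and 2 least like it. *Neil1* and 7 genes of the wider list were not analysed here.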

Additional observations from a re-analysis of the deposited data

How the results depend on the processing

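*Nthl1* was called lower, and no other fitted member was called, under all 10 alternatives that could change a value and without each mouse in turn (an alternative chosen after seeing the data). *Mutyh* and *Ung* were not fitted when a minimum mean normalized count of 20 was set. Its log2 fold change was -3.50 with a pseudocount of 5, and ran from -5.55 to -4.69 under the others and from -5.09 to -4.89 without 1 mouse. With DESeq2, 1 gene of the wider list was called lower (*Smug1*, -0.76), and the cause was not tested. Dropping the filter on low values changed nothing, as no gene lay below it. Over study number 200, *Apex1* moved to 0.76, *Xrcc1* went from -0.48 to 0.16 and *Itpa* reversed to 0.0516; fewer mice were fitted there. *Ung* was at -0.16 without the 4 libraries that stood apart. Rescaling libraries to the same total moved the median of all genes to -0.11 and *Nthl1* to -5.07. Adjusted over the 16 comparisons alone, 2 study number differences passed. When adjusted over all genes, which were then tested in place of the 8 (chosen after seeing the data), 0 passed. *Ung* in *b6/b6* mice was already at the smallest *P* that 792 splits allow, so a loss cannot be read from that 0. Without the 4 libraries that stood apart, where fewer mice remained, 0 passed. There *Apex1* and *Ung* in *b6/b6* mice were at the smallest *P* that 120 splits allow (exact permutation test, adjusted *P* = 0.0667 over the 16). That *P* could be no lower however large the difference, so a loss cannot be read from this 0. No relation with intake passed under any of its 4 alternatives. The count of calls over all genes was 208 with limma, 391 with edgeR, 395 with DESeq2, 312 with study number as a covariate and 410 under study number 200, and higher calls made up 31.7%, 15.3%, 20.8%, 25.6% and 51.5%. No paired analysis was possible because replicate numbers only name the mice. Genes under a mean of 6.03 normalized counts were not analysed here, and *cast/cast* levels of *Nthl1* at or below 3 hits could not be resolved further.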
